A study of Drosophila melanogaster with 3 samples.

Results

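Binding of the protein CG34224 was described at 10 genes of the Wnt pathway: wg, fz, fz2, arr, dsh, sgg, Axn, arm, pan and nkd, out of 13968 annotated protein-coding genes. The genes were listed by name for their roles in the pathway, at a time when earlier results of these data were known. For each gene, every peak whose summit, the position of highest signal, lay within 500 bp of any annotated start site was collected, and such a gene is called bound in that list. Start sites within 100 bp of each other were taken as 1 promoter, which gave 27 promoters, numbered P1 upward from the most upstream to the most downstream promoter of each gene. Each peak was given only to the promoter of its nearest start site of the gene. Where promoters lie close together, a promoter without a peak can therefore still have a summit within 500 bp. Chromatin immunoprecipitation followed by sequencing (ChIP-seq) had been done on whole Drosophila melanogaster embryos aged 0 to 24 hours that carried a transgene for CG34224 fused to eGFP, with an antibody to GFP. All 3 libraries, biological replicates 1, 2 and 3, came from the strain labelled CG34224-GFP and form 1 group. Each library mixes every embryonic tissue and stage of that time span, and a library without the fusion protein was not analysed here. The peaks rest on the fusion protein and on that antibody alone, and no value here tells the tissues apart in which a promoter was bound.

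The Wnt pathway carries patterning signals between cells, and the Wingless branch sets, among other things, the polarity of the segments of the fly embryo. The secreted ligand Wingless (wg) binds Frizzled receptors (fz, fz2) together with the co-receptor Arrow (arr), a relative of vertebrate LRP5 and LRP6, and Dishevelled (dsh) passes the signal on inside the cell. Without ligand, the scaffold Axin (Axn) and the kinase Shaggy (sgg, the fly GSK3) hold the beta-catenin Armadillo (arm) at a low level. With ligand, Armadillo accumulates and acts with the DNA-binding protein Pangolin (pan, the fly TCF), and Naked cuticle (nkd) is a feedback inhibitor that the pathway itself induces.

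The bound promoters of wg, fz, fz2, arm and pan are shown as DNA, because the values that follow turn on the summits within them. Each stretch reaches 50 bases to either side of the conservative summit, shortened where an annotated transcribed exon began, and is read 5′ to 3′ on the strand of the gene (dm6). The stretches of fz2, arm and pan were shortened at the 3′ end, so their summits lie nearer to that end than to the other. The wg window is chr2L:7306936-7307036, plus strand, the fz window is chr3L:14274182-14274282, plus strand, and the pan window is chr4:69232-69325, plus strand. The fz2 window at P2 is chr3L:19170649-19170708, minus strand, and the arm window at P2 is chrX:1900174-1900238, minus strand. Capitals mark every match, on either strand, to the sequence CGATA, to GAGAG and to the hexamer CAGCTG, which were among 6 short sequences searched.
wg: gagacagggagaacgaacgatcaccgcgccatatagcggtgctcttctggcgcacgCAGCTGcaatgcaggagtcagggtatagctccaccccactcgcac
fz: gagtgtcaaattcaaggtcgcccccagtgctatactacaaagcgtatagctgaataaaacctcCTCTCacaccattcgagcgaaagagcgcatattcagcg
fz2 P2: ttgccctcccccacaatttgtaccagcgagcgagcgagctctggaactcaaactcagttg
arm P2: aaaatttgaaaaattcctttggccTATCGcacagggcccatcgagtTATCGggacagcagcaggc
pan P1: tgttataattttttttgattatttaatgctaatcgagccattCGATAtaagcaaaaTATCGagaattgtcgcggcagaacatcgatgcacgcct

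In the authors' conservative list, 9 of the 10 genes were bound, all but dsh, where 29.7% of all protein-coding genes were bound by the same rule. The thresholded lists of replicates 1, 2 and 3 gave 4, 6 and 7 bound Wnt genes, beside 21.1%, 22.3% and 28.6% of all protein-coding genes. The remaining series lists a, b and c gave 7, 8 and 6, beside 32.4%, 28.8% and 26.4%. Which replicates were compared to make each series list is not stated in the sources, so these lists are not independent of the replicates or of each other. The bound share of the 10 genes was 56.7% ± 15.3 (SD, n = 3), and that of all protein-coding genes was 24.0% ± 4.07 (SD, n = 3), with the Wnt share higher in 3 of 3 replicates. Which genes made up these counts changed from list to list. The receptor genes fz and fz2, the kinase gene sgg and the TCF gene pan were bound in all 3 thresholded lists. The ligand gene wg and the beta-catenin gene arm, both bound in the conservative list, were bound in 0 of them. The dsh gene was bound in replicate 2 alone, nkd and Axn in replicate 3 alone, and arr in replicates 2 and 3.

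The longer ranked lists, which hold peaks that did not reach the threshold, had a promoter peak at all 10 genes in every replicate, beside 61.6%, 59.6% and 69.8% of all protein-coding genes in replicates 1, 2 and 3. A missing thresholded peak at one of these genes therefore means that the peak listed within 500 bp had a lower score, not that none was listed. At Axn, replicates 1 and 2 also had a thresholded summit just beyond that limit, 539 and 534 bp upstream.

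Where a Wnt gene was bound, its peak was not among the strongest as a rule. The percentile used here is the share of the peaks of a list whose signal was equal to or below that of the gene's strongest promoter peak. In the conservative list the 9 bound genes had a median percentile of 55.2, with a range from 9.65 at arr to 92.6 at pan, while the median over all bound protein-coding genes was 64.5. In the thresholded lists of replicates 1, 2 and 3 the medians over the bound Wnt genes were 52.4, 27.2 and 72.9, beside 59.8, 60.05 and 63.1 over all bound genes. The Wnt median was the lower value in replicates 1 and 2 and the higher value in replicate 3. In the ranked lists, where all 10 genes count, the Wnt medians were 93.9, 91.0 and 96.3, beside 89.0, 87.4 and 90.4 over all genes with a promoter peak, higher in 3 of 3 replicates.

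**Figure D1:**
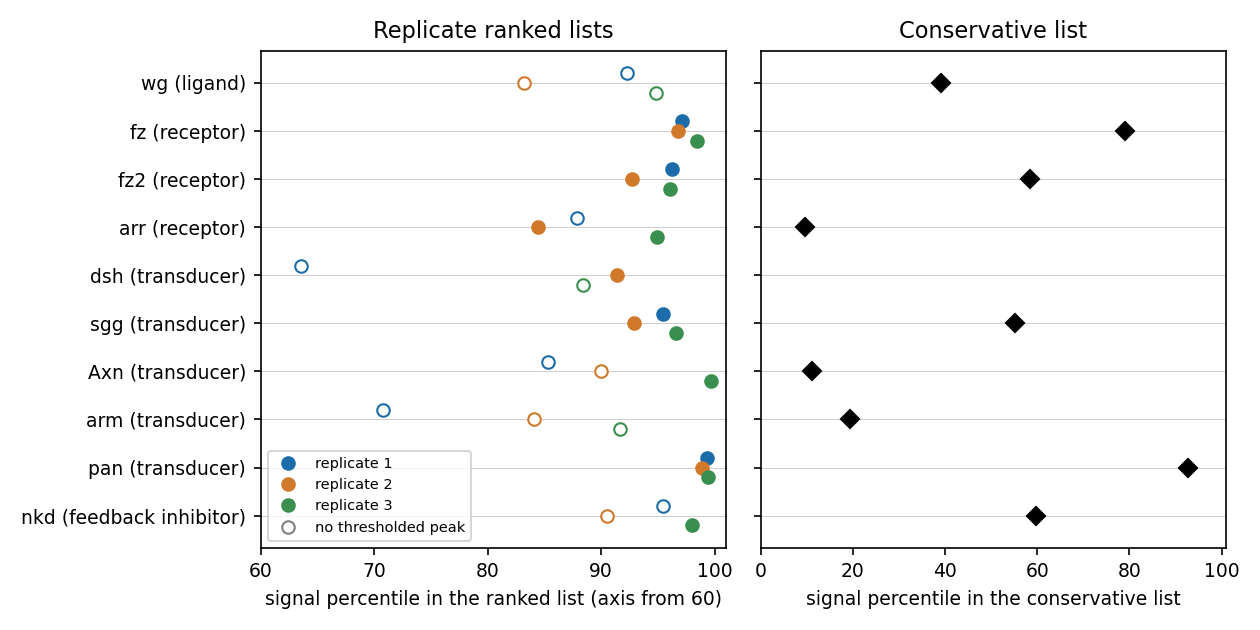
Signal percentile of the strongest promoter peak of each of the 10 Wnt genes, in the ranked list of each replicate (left, axis from 60) and in the conservative list (right). Points are replicates, open where the gene had no thresholded peak in that replicate, and diamonds are the conservative peaks. The 3 points of pan lie between 98.9 and 99.4, those of dsh are spread from 63.5 to 91.4, and dsh has no diamond.

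Over the ranked lists, the TCF gene pan stood highest with a mean percentile of 99.2 ± 0.283 (SD, n = 3), and fz followed with 97.4 ± 0.881. Next came fz2 with 95.0 ± 1.99, sgg with 95.0 ± 1.91 and nkd with 94.6 ± 3.78. Axn had 91.7 ± 7.31, wg 90.1 ± 6.12 and arr 89.1 ± 5.32. The Axn values come from different summits, 334 bp upstream in replicates 1 and 2 and 493 bp upstream in replicate 3. Its SD and its place therefore reflect the 500 bp limit. The stronger summit, beyond the limit in replicates 1 and 2, stood at 99.5, 99.7 and 99.7 in the ranked lists. The lowest means belonged to arm with 82.2 ± 10.6 and dsh with 81.1 ± 15.3. Along this order only 2 neighbouring pairs had ranges over the replicates that did not overlap, pan above fz and fz above fz2. All other neighbours overlapped. Farther along the order, the ranges of fz2 and sgg lay above those of arm and dsh without overlap, and the range of pan lay above that of every other gene but Axn. Percentiles near 100 leave little room to vary in lists of this length, so the SDs of the upper and lower genes are not comparable.

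The ligand gene wg (FBgn0284084, 2L 7307159 to 7316265, plus strand) has 1 annotated start site. Its conservative peak spanned 2L 7306718 to 7307253, with the summit 173 bp upstream of the start site and outside the gene. The signal there was 193, rank 2678 of 4393 peaks, with a score of 888 on a scale that ends at 1000 and begins at 830 in the thresholded lists. In the ranked lists the wg peak had a signal of 51.9 in replicate 1, 34.0 in replicate 2 and 97.3 in replicate 3, with scores of 52, 487 and 738. All 3 scores lie below the lowest thresholded score, and the ranked summits lay 215, 164 and 214 bp upstream of the start site. The wg promoter was thus listed at nearly the same place in every library, yet at no time above the threshold of a single replicate.

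The Frizzled genes were the most evenly bound of the pathway's receptors. The fz gene (FBgn0001085, 3L 14274343 to 14368639, plus strand) had its conservative summit 111 bp upstream of its only promoter, in a peak at 3L 14274103 to 14274328 with a signal of 427, rank 918 and percentile 79.1. Its thresholded peaks had signals of 101.6, 110.4 and 209.1 in replicates 1, 2 and 3, at ranks 1117, 971 and 863 of their lists. As percentiles these were 58.2, 65.9 and 79.2, with a mean of 67.7 ± 10.6 (SD, n = 3). Replicate 3 held the highest value and replicate 1 the lowest. A further conservative summit at fz lay 89 bp downstream of the start site, in the 5′ UTR, with a signal of 98.4 at rank 3999.

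At fz2 (FBgn0016797, 3L 19140975 to 19235373, minus strand) the bound promoter was not the most upstream one. The gene has 3 promoters, and P2, which starts 64.7 kb downstream of P1 and serves 5 annotated transcripts, held the conservative peak at 3L 19170390 to 19170925. The summit lay 10 bp upstream of that start site, within an intron of the transcripts that begin at P1, with a signal of 261 at rank 1828. In replicates 1, 2 and 3 the P2 peak had signals of 85.7, 60.8 and 114.5, at ranks 1426, 2090 and 2164 and percentiles of 46.6, 26.5 and 47.8. Replicate 2 was the lowest of these, and the mean was 40.3 ± 11.98 (SD, n = 3). P1 and P3 had no thresholded peak in any replicate and no conservative peak. In the ranked lists, P1 was listed in replicates 1 and 3 with signals of 44.0 and 67.3, and P3 in the same replicates with 23.0 and 26.2. One of the other series lists, b, held a P1 peak with a signal of 114.

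A second fz2 site lay at no annotated promoter of a protein-coding gene. It lay in an intron 1250 bp upstream of P2, at 3L 19171630 to 19172165, with a conservative signal of 259 at rank 1849, next to the P2 peak in strength. Replicates 2 and 3 listed it above the threshold with signals of 80.7 and 123, and replicate 1 did not. In replicates 2 and 3 its signal was above that of the P2 peak of the same list. The window around this summit, chr3L:19171848-19171948, minus strand (dm6), is shown because this site was listed again in separate replicates. No annotated start site of a protein-coding gene lies within 500 bp of it, and start sites of other genes were not searched. The window holds 4 matches to GAGAG, counted with overlaps, in capitals. The P2 window above, which was shortened to 60 bases, holds none, but the whole P2 peak holds 7, so the sites do not differ in whether the sequence is present.
fz2 intronic site: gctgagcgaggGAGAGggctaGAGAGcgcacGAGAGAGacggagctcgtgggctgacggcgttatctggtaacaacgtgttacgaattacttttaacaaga

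The kinase gene sgg (FBgn0003371, X 2633952 to 2679553, plus strand) has 11 annotated start sites, which form 10 promoters over 33.9 kb, the largest number in the set. Conservative peaks lay at 5 of them, P1, P3, P5, P8 and P9, and 1 other protein-coding gene had as many bound promoters in that list. Of the 4153 bound genes, 221 had more than 1 bound promoter. Series list a had peaks at P5, P8 and P9, and lists b and c at P5 and P9 only. In the thresholded lists of replicates 1, 2 and 3, sgg had 1, 1 and 3 bound promoters. In those lists, 2940, 3110 and 20 other genes had as many or more. P5, the start of the transcript sgg-RR, was the only sgg promoter above the threshold in all 3 replicates. Its conservative summit lay 97 bp upstream, in an intron of longer transcripts, with a signal of 246 at rank 1971. Its signals were 75.5, 62.0 and 126 in replicates 1, 2 and 3, with percentiles of 36.3, 27.9 and 55.4 and a mean of 39.9 ± 14.1 (SD, n = 3). Replicate 3 was the highest and replicate 2 the lowest.

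P8 and P9 were bound above the threshold in replicate 3 alone. P8, the start of sgg-RQ, had a conservative signal of 202 and a replicate 3 signal of 124, close to the 126 of P5 in the same list. P9, the start of sgg-RD and sgg-RP, had a conservative signal of 185 and a replicate 3 signal of 87.6. P1, where 6 transcripts begin, had a conservative signal of 125 and P3 had summits with 86.0 and 50.7, and neither passed the threshold in any replicate. Replicate 1 did have a thresholded summit beyond the limit, in the 5′ UTR. It lay 673 bp downstream of the nearest start site, with a signal of 58.7 and a score of 875. With each peak given to its nearest promoter, P2, P6 and P7 appeared in ranked lists alone. The conservative summits of P1 and P5 also lay within 500 bp of the P2 and P6 start sites. P4 and P10 had no listed peak at all. One more conservative peak, at X 2652333 to 2652868, lay in an intron 5964 bp from the nearest sgg start site, with a signal of 183, and replicate 3 listed it with 101.5. The windows of P5, P8 and P9 are set side by side because these promoters differ in how many replicates listed them. They are chrX:2642607-2642707, chrX:2646394-2646494 and chrX:2658620-2658720, all plus strand (dm6), with the same matches in capitals.
sgg P5: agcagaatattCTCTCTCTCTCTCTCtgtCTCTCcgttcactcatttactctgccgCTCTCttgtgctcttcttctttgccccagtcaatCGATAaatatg
sgg P8: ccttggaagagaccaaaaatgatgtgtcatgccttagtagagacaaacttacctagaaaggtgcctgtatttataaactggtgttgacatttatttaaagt
sgg P9: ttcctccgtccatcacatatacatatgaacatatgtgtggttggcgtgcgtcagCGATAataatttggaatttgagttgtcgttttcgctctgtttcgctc

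The P5 window carries a run of CTCTC repeats that holds 8 matches to GAGAG, counted with overlaps, and 1 match to CGATA. The P9 window has 1 match to CGATA, and the P8 window has no match to any of the 6 sequences searched. Over the whole peaks, GAGAG had 10 matches at P5, 3 at P8 and 3 at P9, so these promoters do not differ in whether it is present. The whole P8 peak also holds 1 match to CAGCTG and 1 to CTTTGAT.

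**Figure D2:**
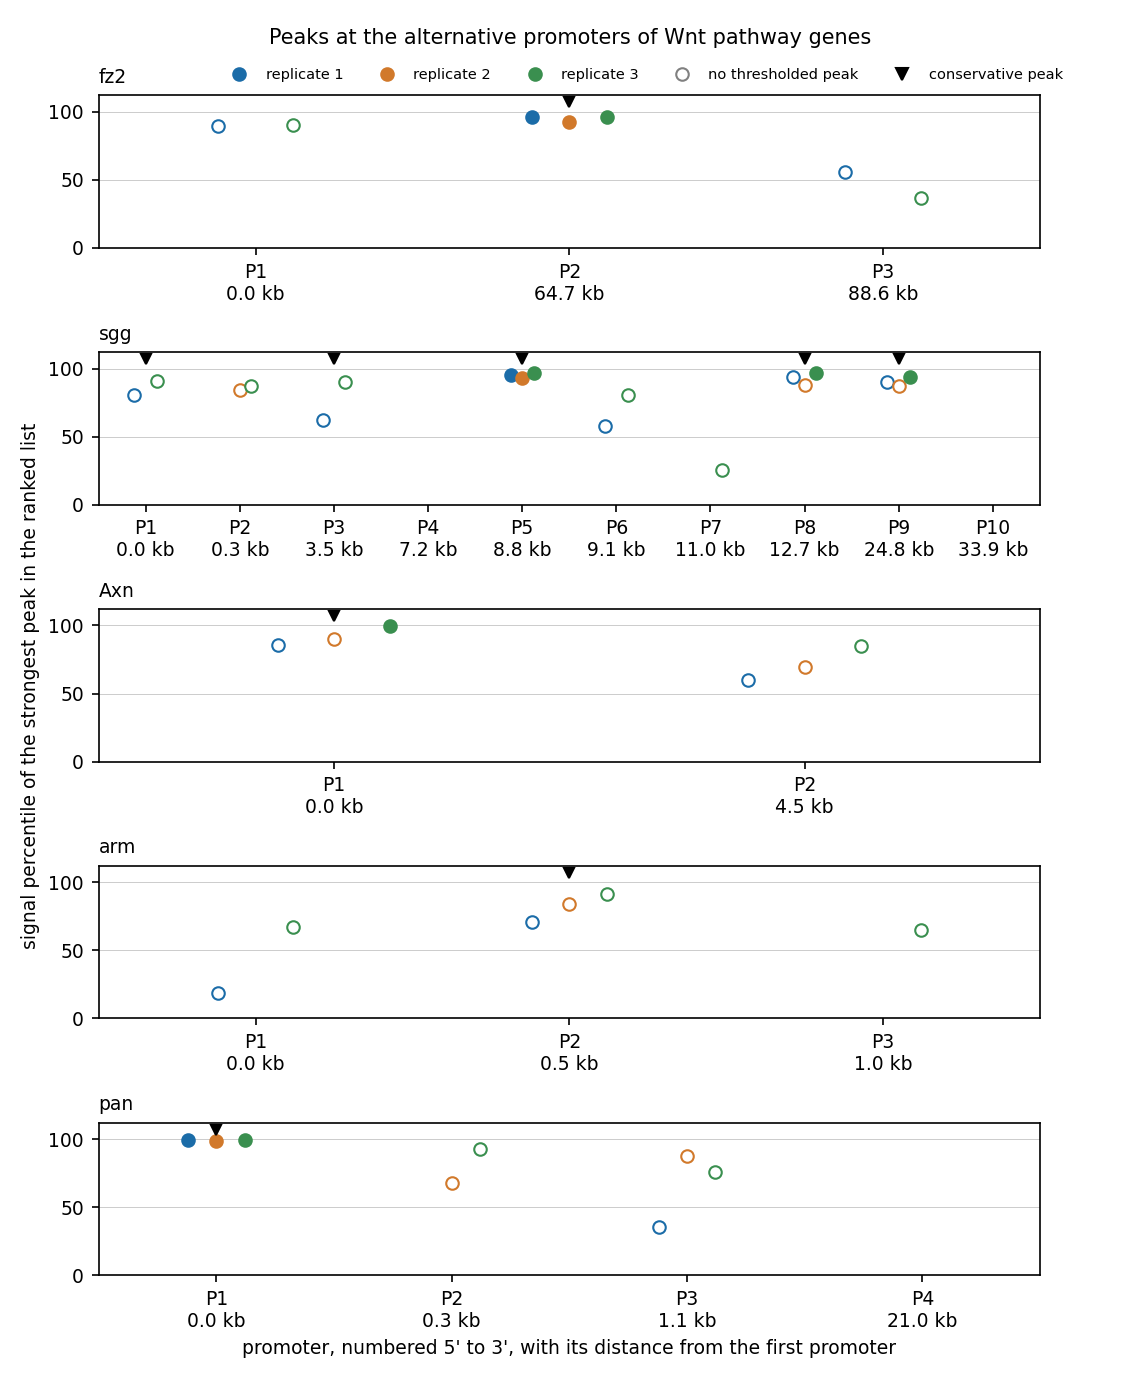
Signal percentile of the strongest peak at each promoter of the 5 Wnt genes with more than 1 promoter, in the ranked list of each replicate. Each peak is drawn only at its nearest promoter. Promoters run from upstream to downstream with their distance from P1 in kb, filled points mark a thresholded peak in that replicate, open points a ranked peak only, and triangles a conservative peak. At fz2, sgg and pan only P2, P5 and P1 carry filled points from all 3 replicates.

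The TCF gene pan (FBgn0085432, chromosome 4, 69326 to 114270, plus strand) had the strongest promoter peak of the set in the conservative list and in replicates 1 and 2, while in replicate 3 the Axn peak ranked higher. The pan peak lay at chromosome 4, 69126 to 69448, with the summit 44 bp upstream of P1, where 5 transcripts begin, and a conservative signal of 667 at rank 325. The signals in replicates 1, 2 and 3 were 191, 178 and 317, at ranks 270, 336 and 305. The percentiles of 89.9, 88.2 and 92.7 had a mean of 90.3 ± 2.25 (SD, n = 3). This SD was the smallest among the 4 genes bound in all replicates. Percentiles near the top of a list leave less room to vary, so the SDs of these genes are not comparable. These summits also lay within 500 bp of the P2 start site, but each peak was given to its nearest promoter. With that rule, the other pan promoters were not bound above the threshold in the conservative list or in any list of a replicate. P2, 327 bp downstream, was listed below it in replicates 2 and 3 with signals of 23.6 and 77.5. P3 was listed below it in all 3 replicates with 18.7, 41.7 and 42.7, and P4, 21.0 kb downstream of P1, had no listed peak.

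The beta-catenin gene arm (FBgn0000117, X 1891401 to 1900646, minus strand) had its conservative peak at P2, the start of the transcript arm-RA, 473 bp downstream of P1. The summit lay 15 bp upstream of that start site, in an intron of the transcript arm-RD, with a signal of 145 at rank 3539 and a score of 885. In the ranked lists the P2 signal was 27.3, 35.0 and 71.8 in replicates 1, 2 and 3, with scores of 406, 93 and 641. None of these reached the threshold, as at wg. Unlike wg, which was bound in series lists a and b, arm was not bound in series list a, b or c. The conservative list was thus the only thresholded list with an arm promoter peak. P1 was listed in replicates 1 and 3 with 15.5 and 37.6 and P3 in replicate 3 with 36.3, so P2 had the highest value of the 3 promoters in every replicate. A conservative peak 9349 bp downstream of the nearest arm start site lay at the promoters of mRpL16, a mitochondrial ribosomal protein gene, and trr, with a signal of 173, and no replicate listed it above the threshold.

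Axn (FBgn0026597, 3R 30022842 to 30035311, plus strand), the scaffold gene, owed its count to the 500 bp limit. The conservative interval upstream of P1, 3R 30022125 to 30022545, was listed with separate summits. The stronger, with a signal of 836 at rank 140 and percentile 96.8, lay 531 bp upstream of the Axn start site, 90 bp upstream of the start site of Mgat2, and 337 bp downstream of that of the ribosomal protein gene RpS28a. The weaker, with a signal of 114.8 at rank 3909 and percentile 11.0, lay 317 bp upstream of Axn and inside RpS28a, and it alone met the rule. In replicates 1, 2 and 3 the thresholded summit lay 539, 534 and 493 bp upstream of Axn, with signals of 215, 243 and 363 at ranks 175, 104 and 182. The interval was bound at similar rank in all 3 replicates, and only the summit of replicate 3 fell inside the limit. Among the 9 bound Wnt genes, Axn was the only one whose strongest promoter summit was nearer to the start site of another protein-coding gene, which held for 26.3% of all bound protein-coding genes (1091 of 4153). Counting only genes whose own start site was the nearest left 8 of the 10 Wnt genes, beside 21.9% of all protein-coding genes. P2 of Axn, 4.52 kb downstream, was listed only below the threshold, with signals of 23.9, 24.2 and 52.5.

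The window at the stronger summit, chr3R:30022261-30022344, plus strand of Axn (dm6), lies between Mgat2 and RpS28a and is shown because it is the strongest peak near any gene of the set apart from the one beyond the downstream end of Axn described next. It holds 3 matches to CGATA and 1 to CAGCTG, in capitals, the most CGATA of the windows printed here.
Axn, Mgat2 and RpS28a interval: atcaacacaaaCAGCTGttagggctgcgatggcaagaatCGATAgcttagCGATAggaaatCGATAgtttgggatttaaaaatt

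**Figure D3:**
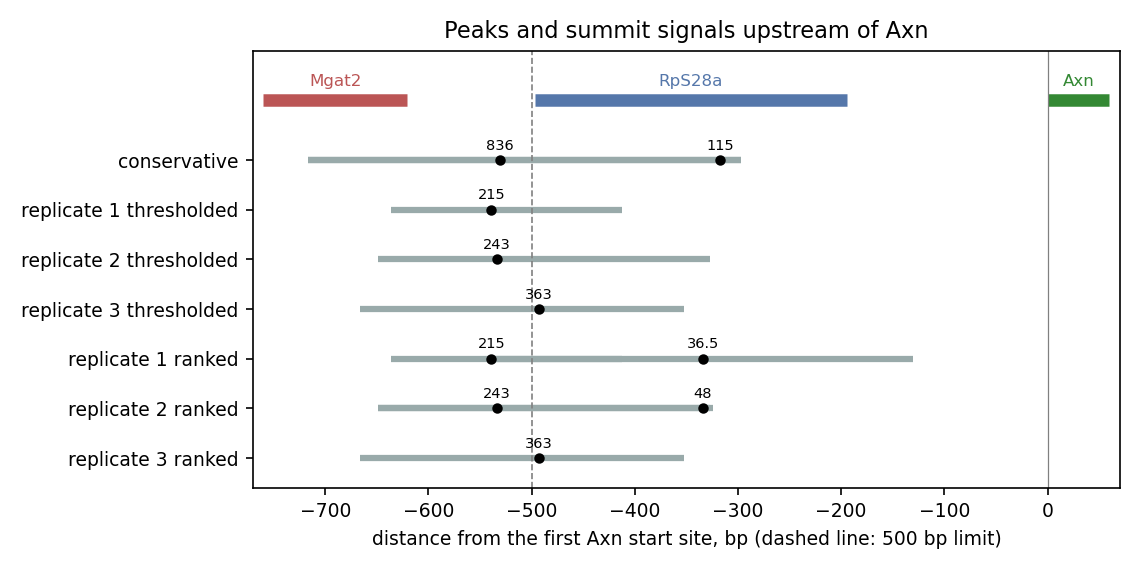
Peaks upstream of Axn, by distance from its P1 start site in bp. Horizontal lines are peak intervals, points are summits with their signal printed above, the bars on top are the genes, and the dashed line is the 500 bp limit. The stronger summit lies to the left of the limit in every list but those of replicate 3, where it lies 493 bp from the start site.

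The region around Axn held other strong peaks at neighbouring genes. A peak at the shared promoter of Sry-alpha, Sry-beta and janA, 12322 bp downstream of the nearest Axn start site, had a conservative signal of 1459 at rank 11, and a peak at ZIPIC ranked 1507. Over all 10 genes, 9 conservative peaks lay inside or within 5000 bp of a gene but over 500 bp from its start sites. Of these, 7 were within 500 bp of the start site of another protein-coding gene, and the other 2 were the intronic sites of fz2 and sgg.

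Dishevelled (dsh, FBgn0000499, X 11355881 to 11358724, plus strand) was the only gene of the set without a conservative promoter peak. Replicate 2 listed a thresholded peak 84 bp upstream of its start site with a signal of 53.9, rank 2329, percentile 18.1 and a score of 986. In the ranked lists the signals were 24.9, 53.9 and 59.6 in replicates 1, 2 and 3, with scores of 146, 986 and 680. As percentiles these were 63.5, 91.4 and 88.4, highest in replicate 2, where the peak passed the threshold. The ranked summits of replicates 1 and 3 lay downstream of the start site, at 242 and 125 bp. Replicate 2 also had a weaker ranked summit downstream, at 134 bp, with a signal of 24.0 and a score of 223. The conservative peak nearest to dsh lay beyond its downstream end and 14 bp upstream of the start site of Pa1, at rank 1182, and it ranked 1537, 857 and 1179 in the replicates.

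The feedback inhibitor nkd (FBgn0002945, 3L 19003741 to 19045449, minus strand) had its conservative summit 119 bp downstream of its only promoter, in the 5′ UTR, with a signal of 268 at rank 1769, percentile 59.8 and the highest score, 1000. Only replicate 3 listed it above the threshold, with a signal of 177 at rank 1125 and percentile 72.9. In the ranked lists its signals were 74.8, 50.1 and 177, with scores of 659, 771 and 1000. In replicate 1 the nkd signal of 74.8 was close to the 75.5 of the bound sgg P5 peak, whose score was 1000 against 659 for nkd. Replicate 3 also had a peak in an nkd intron, 5219 bp from the start site, with a signal of 90.5.

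The co-receptor gene arr (FBgn0000119) had the lowest percentile of the bound genes in the conservative list, 9.65, with a signal of 105.6 at rank 3970 and a score of 941. The summit lay 59 bp downstream of its only start site, in the 5′ UTR. Replicates 2 and 3 listed it above the threshold with signals of 35.6 and 97.5, at ranks 2617 and 2712 and percentiles of 7.92 and 34.6. Replicate 1 listed it only below the threshold, with a signal of 39.9 and a score of 456. The neighbouring promoters shared by Golgin97 and cnn and by cbc and cid had stronger conservative peaks, at ranks 1163 and 2626.

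By role, the conservative list had a peak at the ligand gene, at 3 of 3 receptor and co-receptor genes, at 4 of 5 transducer genes and at the feedback inhibitor. The median percentile there was 39.1 for the ligand, 58.4 for the receptors and 37.3 for the bound transducers. The ranges overlapped widely, with receptors from 9.65 to 79.1 and transducers from 11.0 to 92.6. The thresholded lists of replicates 1, 2 and 3 held 2, 3 and 3 of the 3 receptor genes and 2, 3 and 3 of the 5 transducer genes, and the ligand gene was in none of them. Over the bound genes, the transducer median was above the receptor median in all 3 thresholded lists, with 63.1, 27.9 and 92.7 against 52.4, 26.5 and 47.8, and below it in the conservative list. In the ranked lists, where all genes count, the transducer medians were 85.3, 91.4 and 96.6. The receptor medians there were 96.3, 92.7 and 96.0, higher in replicates 1 and 2 and lower in replicate 3. No order of the roles held across the lists. A role here is 1 to 5 genes, and genes are not replicates, so the roles were not tested against each other.

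Genes with several promoters have more chances to meet the rule. Of the 5 Wnt genes with more than 1 promoter, 5 were bound in the conservative list, beside 42.6% of all 3293 such protein-coding genes. Of the 5 with 1 promoter, 4 were bound, beside 25.8% of 10675 such genes. In the thresholded lists of replicates 1, 2 and 3, 3, 3 and 4 of the former were bound, beside 29.7%, 31.2% and 41.8% of such genes. Of the latter, 1, 3 and 3 were bound, beside 18.4%, 19.5% and 24.6%, so that in replicate 1 the share of the Wnt genes with 1 promoter was near that of all such genes. Over promoters, with each peak given to its nearest promoter of a gene, 13 of the 27 had a conservative peak. The share was 23.2% of all 18945 promoters of protein-coding genes by the same rule. The conservative summits of pan P1, sgg P1, sgg P5 and arm P2 also lay within 500 bp of a neighbouring promoter, which was not counted. The thresholded lists of replicates 1, 2 and 3 had a peak at 4, 6 and 9 of the 27, beside 16%, 17% and 22.4% of all promoters. Of the 15 conservative promoter summits of the set, 6, 7 and 10 had a matching interval in replicates 1, 2 and 3, where a match covered 50% or more of the shorter interval. All 3 replicates held 6 of them, among which the weaker summits at fz and Axn shared their match with the stronger summit beside them. None of the replicates held 5, those of wg, arm P2, sgg P1 and both at sgg P3.

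A wider list of 38 further Wnt genes gave the setting of these 10. In the conservative list 19 of the 38 (50%) were bound, and in replicates 1, 2 and 3 the counts were 15, 17 and 16, or 42.1% ± 2.63 (SD, n = 3). All protein-coding genes had 29.7% in the conservative list and 21.1%, 22.3% and 28.6% in the replicates. The 4 bound genes of highest conservative signal were CkIalpha, a kinase that phosphorylates Armadillo, with 1002 at rank 65, and kto, a subunit of the Mediator kinase module, with 730 at rank 235. The receptor gene fz3 followed with 575 at rank 504 and dlp, a glypican that binds Wingless, with 571 at rank 515. Each of these 4 was bound in all 3 replicates.

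The counts by role of the wider list are to be read against the 29.7% of all protein-coding genes bound in the conservative list. None of the 6 other Wnt ligand genes, Wnt2, Wnt4, Wnt5, Wnt6, Wnt10 and wntD, was bound in the conservative list or in a thresholded replicate list, so of the 7 ligand genes wg alone had a conservative peak. Wnt5 and Wnt6 had ranked peaks in all 3 replicates. Of the genes for ligand secretion and extracellular handling, 2 of 6 were bound in the conservative list, dally and dlp, and of the other receptors 2 of 5, fz3 and fz4. Both shares lie near that of all genes. The destruction complex and its kinases had 5 of 7, the nuclear cofactors 8 of 10 and planar polarity 2 of 4. With fz and fz2, all 4 Frizzled genes were bound in the conservative list and in each replicate. Their conservative signals were 427 at fz, 261 at fz2, 575 at fz3 and 333 at fz4. In every replicate fz3 had the highest percentile of the 4, with 81.8, 74.3 and 87.6, and fz2 the lowest, with 46.6, 26.5 and 47.8. The genes in these roles are too few for a comparison between roles, and it was not tested.

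**Figure D4:**
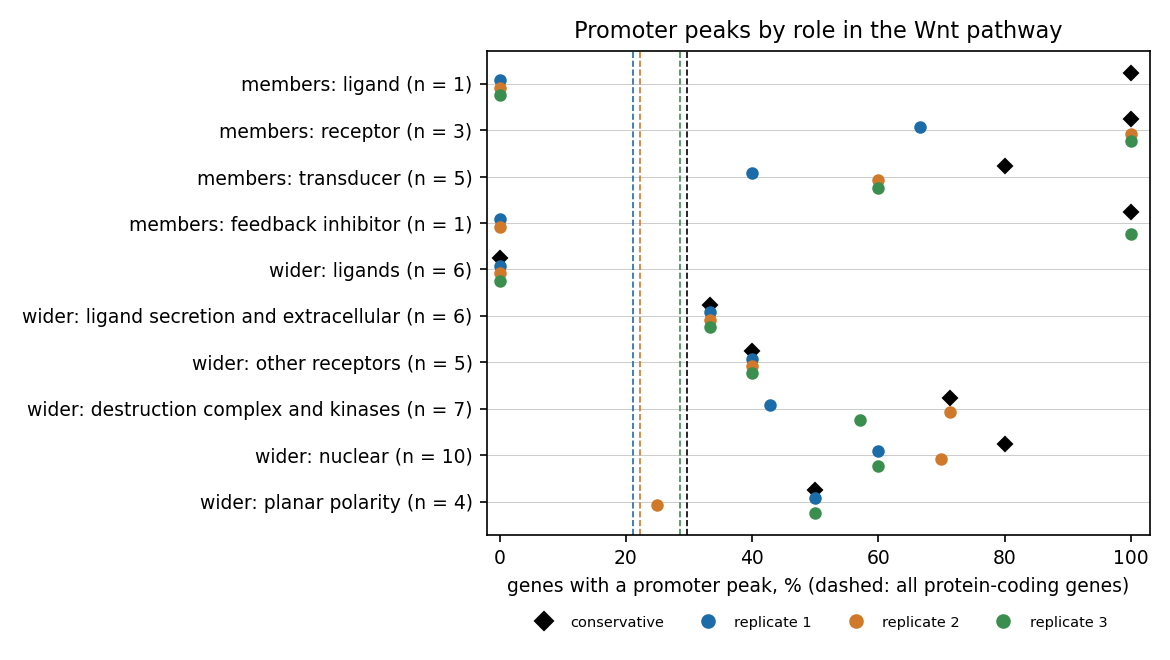
Share of genes with a promoter peak, in percent, by role, for the 10 genes and for the 38 genes of the wider list, with the number of genes in brackets. Diamonds are the conservative list, points the thresholded lists of the replicates, and dashed lines the shares of all protein-coding genes in the same lists. The row of the 6 other ligands lies at 0 in all 4 lists, and the nuclear row lies between 60% and 80%.

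Short sequences were looked for at the summits, in windows reaching 50 bp to either side and on both strands. The first was TATCGATA, the DNA replication-related element (DRE). The shorter CGATA lies inside the DRE and so overlaps it. The others were GAGAG, the hexamer CAGCTG, then the sequence GGTCACACT, and lastly CTTTGAT, a core of the sites that TCF proteins bind. The DRE was in 0 of the 9 windows of the strongest conservative peaks of the bound Wnt genes, beside 18.8% of 3024 conservative promoter peaks and 4.48% of 19275 windows at start sites. CGATA was in 4 windows, those of sgg, arm, pan and nkd, beside 54.2% of conservative promoter peaks and 23.6% of start sites. The arm and pan windows printed above each hold 2 matches to it. Over the whole peaks, fz, fz2 and Axn also held CGATA, with 1, 2 and 3 matches, and wg and arr held none. The share of all conservative promoter peaks with CGATA over the whole peak is not given here.

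GAGAG was in the fz and sgg windows, 2 of 9, beside 14.6% of conservative promoter peaks and 12.7% of start sites. CAGCTG was in the wg window alone, beside 12.2% and 8.77%. GGTCACACT and CTTTGAT were in none, beside 3.31% and 1.16% of conservative promoter peaks and 3.64% and 1.45% of start sites. With 9 windows these counts describe the letters present and say nothing about which factor binds there.

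The genes with the most similar pattern were sought for the strongest bound gene of each role, among genes bound in the same lists and not sharing its peak. The measure was the largest difference in signal percentile over the conservative list and the 3 thresholded replicate lists. For pan, the closest of 2392 candidates were Aprt, whose percentiles differed by at most 0.933, and GstO1, with at most 1.54. For fz they were Bet3 and Nf-YA, which share 1 peak and differed by at most 1.84. For wg the measure rests on the conservative list alone, where LBR differed by 0.159 and Root by 0.296 among 357 candidates.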

How the data were processed

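The deposited peak lists of 3 ChIP-seq libraries were used: a ranked and a thresholded list per replicate by irreproducible discovery rate (IDR), and 4 thresholded series lists, 1 of them named conservative and the others called a, b and c by length. The deposited descriptions state that coordinates are on dm6 and that the lists of the series were built on the aligned reads of the 3 libraries, but not which replicates were compared for each. Shearing was to 200 to 800 bp per the labels. The signal of a peak is the authors' value on an unstated scale and was used only to rank peaks within a list. The score is the authors' scaled IDR value, at most 1000, and at least 830 in thresholded lists. The aligner was, like the peak caller, not given in the sources used here.

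No read counts accompany the deposited peaks, so depth is unknown. On the chromosome arms the thresholded lists held 2667, 2841 and 4145 peaks, the ranked lists 40072, 31402 and 57331, and the conservative list 4393. Replicate 3, the longest list, also had the most bound Wnt genes, and the part of list length in that was not tested. An interval listed with several summits counts once per summit in ranks.

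Start sites came from Ensembl annotation BDGP6.54, release 115, and sequences from Release 6 of the genome, with Python 3.11.15, pandas 2.3.3 and numpy 2.4.6. The promoter step was tested on simulated data. Values are described without tests: with 1 group and 3 replicates a paired exact sign test, 2-sided, cannot go below p = 0.25. The genes, lists and sequences were chosen with earlier results of these data known, the high signals of pan and fz among them, so no count is independent evidence. All 10 genes are named, with the 4 bound genes of highest conservative signal of the wider list (2 of its genes matched through RefSeq synonyms), neighbours with a start site within 500 bp of a named summit, and the 2 genes of most similar percentiles for the strongest bound ligand, receptor and transducer gene. Alternatives changed the distance, the list, the signal or score needed, the start sites, the overlap, the window and the replicates.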

Additional observations from a re-analysis of the deposited data

How the results depend on the processing

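Of 99 values under an alternative, 90 stayed close to the reported value (counts within 1.5 times, means and medians within the SD of the replicates, the percentile of 1 peak equal) and 9 moved. A mean over 3 replicates cannot leave their SD when 1 replicate is dropped. The 30 such means of ranked percentiles, and those of the bound count, therefore had to stay and say nothing about stability. Keeping the upper 50% of each list by signal left 5 bound Wnt genes in the conservative list, 2 in replicate 1 and 2 in replicate 2. Under that filter 19.7%, 12.9% and 13.7% of all protein-coding genes were bound in the same lists. The other alternatives kept between 6 and 9 in the conservative list: 8 within 250 bp (Axn lost), 9 within 1000 bp, 7, 8 and 6 in series lists a, b and c, 6 at a score of 1000, 8 at the gene-level 5′ end alone (fz2 lost) and 8 where the own start site was the nearest, an alternative added after the data were seen. The mean bound count over replicates, 5.67, lay between 5 and 6.5 without 1 replicate. The ligand median percentile, that of wg, was 44.6 in list a and 38.1 in list b, with no value in list c or any replicate. The receptor median was 72.3 in list a, where arr was not bound, and 26.5 in replicate 2. The transducer median was 92.7 in replicate 3, where 3 of 5 genes were bound. In series lists a, b and c it was 60.1, 54.3 and 47.9, beside 37.3 in the conservative list. These 3 values counted as close only because the SD over the replicates was wide. The Axn conservative percentile went from 11.0 to 96.8 within 1000 bp, since the stronger summit then counted. The DRE count was 0 in every window. Depth is unknown, and its part in which peaks passed the threshold was not tested. No paired analysis was possible because the 3 replicates form 1 group, so no groups share replicate numbers.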
